A study of Homo sapiens with 15 samples.

Results

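Sinoatrial character was examined through 8 pacemaker genes, SHOX2, TBX3, TBX18, HCN4, CACNA1D, CACNA1G, KCNJ3 and KCNJ5, chosen by name from a table of 60605 genes. The data are 15 bulk RNA sequencing libraries of differentiating H1 cells, a human embryonic stem cell line, all of WT genotype. Every culture received CHIR99021, an activator of WNT signalling, on day 0 and insulin on day 1 to make mesendoderm. Days 0, 1 and 2 have 1 library each, shared by all arms. From day 3 there were 3 arms with 1 library each on days 3, 5, 7 and 10. The NP-ctrl arm was not passaged and differentiated spontaneously, the NP-IWP2 arm was not passaged and received IWP2, which blocks WNT secretion, and the passaged arm was lifted off on day 2 and moved to new wells with no WNT inhibitor. IWP2 was given from day 2 and left out from day 5 on. The study reports using the ROCK inhibitor Y27632 in every differentiation experiment that followed its survival tests. The labels of these libraries do not name it. No arm and day was measured again, all libraries come from 1 cell line, and the days therefore supply the only repetition within an arm.

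The heart beat starts in the sinoatrial node, whose cells depolarise on their own between beats. HCN4 carries the inward pacemaker current, L-type and T-type calcium channels complete the depolarisation, and a potassium channel opened by acetylcholine slows the rate under vagal control. SHOX2, TBX3 and TBX18 are transcription factors of the developing node that hold back the working muscle programme or shape the node. None of these genes belongs to the node alone, and TBX18 is also a gene of the epicardium, the outer layer of the heart.

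Each library held between 13254723 and 20250115 counts (median 15269132), and mitochondrial genes took 3.71 to 6.14% of them in 13 libraries. The remaining libraries stood apart and were both passaged, at 1.53% on day 3 and 10.3% on day 10. Fits without either day are therefore given where passaged is compared with another arm over days 3 to 10. The comparison of day 10 with day 3 and the values of those single days cannot leave them out. The day labels held up against defining markers, whereas the arm labels were not checked by a marker of passaging or of IWP2. POU5F1, a pluripotency factor, stood at an FPKM of 625 on day 0 and at no more than 0.03 on day 10. TNNT2, cardiac troponin T, was at 0.02 on day 0 and, on day 10, at 55.5 in passaged, 42.8 in NP-IWP2 and 21.8 in NP-ctrl. FPKM here is the count of a gene scaled by exon length and library total. All 8 pacemaker genes passed the filter, which asked for 1 library or more with an FPKM of 1 or higher, as did 21206 genes in all. In these bulk libraries, fewer cells of a type and less RNA per cell cannot be told apart.

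The start sites of the genes whose reads were missing or nearly missing from the passaged arm are shown beside one whose reads were not. RefSeq (GRCh38.p14) gave a window for 6 of the 8 genes, each of 300 bases with 250 before and 50 after a RefSeq start. The windows of KCNJ3, SHOX2 and CACNA1D lie inside the gene bounds given below, whose outer starts are at 154697855, 158106420 and 53328963. The CACNA1D window begins at 53494361. Those of TBX18, KCNJ5 and HCN4 cover the outer start. Which start these cells used was not tested. The windows below lie at chr6:84764549-84764848 (minus strand) for TBX18, chr3:158106114-158106413 (minus strand) for SHOX2, chr2:154698445-154698744 (plus strand) for KCNJ3 and chr11:128891106-128891405 (plus strand) for KCNJ5. Capitals mark CpG dinucleotides, the sites of DNA methylation.
TBX18: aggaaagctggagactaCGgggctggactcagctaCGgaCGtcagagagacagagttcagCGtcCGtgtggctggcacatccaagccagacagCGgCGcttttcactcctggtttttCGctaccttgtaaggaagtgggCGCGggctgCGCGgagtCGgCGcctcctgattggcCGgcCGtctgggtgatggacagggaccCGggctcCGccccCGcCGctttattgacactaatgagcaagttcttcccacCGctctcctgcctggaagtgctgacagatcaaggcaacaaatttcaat
SHOX2: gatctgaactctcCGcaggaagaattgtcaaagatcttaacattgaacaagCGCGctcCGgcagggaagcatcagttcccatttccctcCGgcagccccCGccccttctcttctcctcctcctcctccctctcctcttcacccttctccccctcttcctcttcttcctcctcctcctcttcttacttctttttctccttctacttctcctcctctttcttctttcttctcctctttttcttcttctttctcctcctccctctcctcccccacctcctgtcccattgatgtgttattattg
KCNJ3: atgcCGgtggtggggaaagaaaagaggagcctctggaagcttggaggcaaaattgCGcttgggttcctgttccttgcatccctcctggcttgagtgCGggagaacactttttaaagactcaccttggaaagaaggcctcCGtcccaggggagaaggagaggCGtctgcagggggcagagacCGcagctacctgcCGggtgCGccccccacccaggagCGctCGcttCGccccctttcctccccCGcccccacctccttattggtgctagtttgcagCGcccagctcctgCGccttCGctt
KCNJ5: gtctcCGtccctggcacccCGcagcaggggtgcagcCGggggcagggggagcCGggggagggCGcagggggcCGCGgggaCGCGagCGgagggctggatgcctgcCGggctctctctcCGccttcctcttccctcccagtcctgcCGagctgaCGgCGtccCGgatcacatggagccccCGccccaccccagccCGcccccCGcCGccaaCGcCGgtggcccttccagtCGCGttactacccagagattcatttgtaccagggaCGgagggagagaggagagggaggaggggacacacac
The median over 35116 human windows was 14 CpGs. SHOX2 held 6, KCNJ3 15, HCN4 19, TBX18 21, KCNJ5 25 and CACNA1D 56, so the genes with no or few passaged reads lay on both sides of that median. Short motifs were searched on both strands. The T-box motif TCACACCT (in 0.980% of all windows), the GATA motif AGATAA (10.3%), the TATA box TATAAA (11.5%) and the NKX2-5 motif TGAAGTG (3.25%) had no match in the 6 windows. CCAAT, found in 34.6% of all windows, matched once in TBX18, at position -82 on the opposite strand, and once in KCNJ3, at position 8 on the opposite strand. No methylation or binding was measured in this series.

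**Figure D1:**
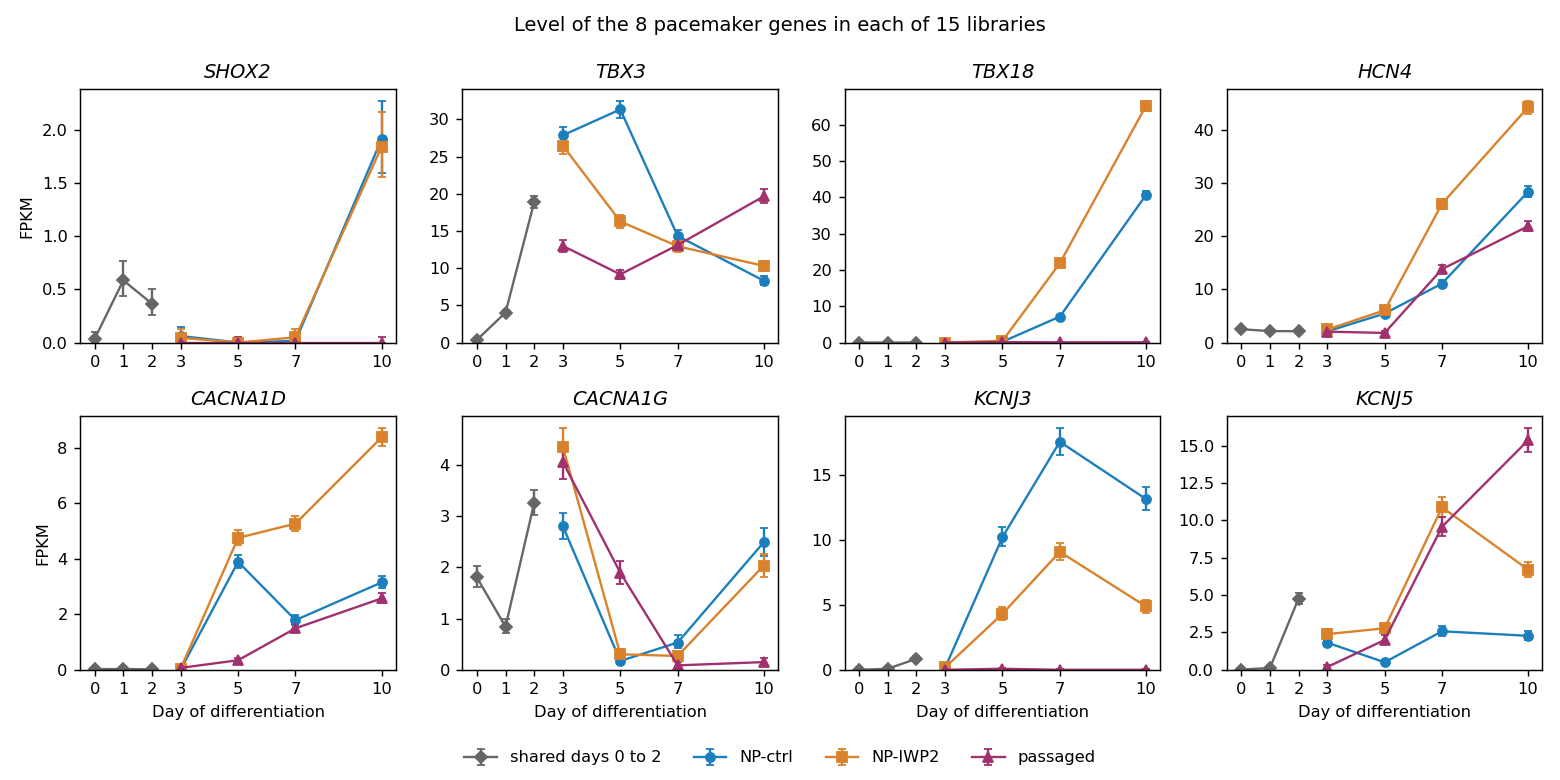
FPKM of each pacemaker gene against day of differentiation in the 15 libraries, with a panel and its own vertical scale for each gene. Points are single libraries and bars are 95% Poisson intervals that cover counting error only. SHOX2, TBX18 and KCNJ3 run along 0 in the passaged arm, whereas TBX3 and KCNJ5 end highest there on day 10.

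TBX18 had the highest day 10 level of the 8 genes in both unpassaged arms and was nearly missing from the passaged arm. The gene lies on chromosome 6 (84687351 to 84764598, minus strand, GRCh38). It had 2, 0 and 0 reads on days 0, 1 and 2. In NP-ctrl its counts were 0, 31, 818 and 4730 on days 3, 5, 7 and 10, which is an FPKM of 40.6 on day 10. In NP-IWP2 they were 0, 58, 3055 and 8928, which is an FPKM of 65.1. In passaged they were 1, 15, 9 and 10, which is an FPKM of 0.08. The arms overlapped at 0 to 1 reads on day 3 and were far apart on days 7 and 10. On day 10 the passaged level was 0.00187 times that of NP-ctrl (95% interval 0.000896 to 0.00344), a level 535-fold lower, and 0.00117 times that of NP-IWP2. All single-day ratios here compare 1 library with 1 library, and their intervals cover counting error only.

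SHOX2 was low throughout. This homeobox gene lies on chromosome 3 (158095905 to 158106420, minus strand). It had 3, 54 and 37 reads on days 0, 1 and 2, then, on days 3, 5, 7 and 10, NP-ctrl had 5, 0, 1 and 129 reads and NP-IWP2 had 3, 0, 4 and 146. All 4 passaged libraries had 0 reads. Only the unpassaged libraries of day 10 rose above the level of days 1 and 2, to an FPKM of 1.91 (NP-ctrl) and 1.84 (NP-IWP2). Those 2 libraries did not differ beyond counting error, with an NP-IWP2 to NP-ctrl ratio of 0.962 (0.754 to 1.23). With the passaged library set to a floor of 3 counts, its day 10 level was at least 48.6-fold lower than in NP-ctrl and at least 46.8-fold lower than in NP-IWP2.

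TBX3 followed another course. It encodes a T-box repressor and lies on chromosome 12 (114670255 to 114684175, minus strand). Its FPKM climbed from 0.35 on day 0 to 4.03 on day 1 and 18.9 on day 2. In NP-ctrl it was 27.9, 31.3, 14.3 and 8.31 on days 3, 5, 7 and 10, and in NP-IWP2 it was 26.4, 16.3, 12.9 and 10.3. In passaged it was 13.0, 9.16, 13.1 and 19.6 on the same days. The passaged library was the lowest on days 3 and 5 and the highest on day 10, where it stood 2.36 times above NP-ctrl (2.16 to 2.59) and 1.91 times above NP-IWP2 (1.76 to 2.06). On day 7 the 3 arms lay between 12.9 and 14.3, and the passaged to NP-IWP2 ratio of 1.01 (0.934 to 1.10) was within counting error.

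HCN4 was present in all 15 libraries. The gene lies on chromosome 15 (73319859 to 73368958, minus strand). Its FPKM was 2.5, 2.15 and 2.13 on days 0, 1 and 2. On days 3, 5, 7 and 10 the passaged arm was at 2.05, 1.81, 13.8 and 21.9. NP-ctrl was at 2.11, 5.44, 11.1 and 28.3, and NP-IWP2 was at 2.45, 6.06, 26.1 and 44.2 on the same days. The passaged level on day 5 (1.56 to 2.08) lay below that of the stem cells on day 0 (2.22 to 2.81), beyond counting error, and was above it by day 7. From day 3 to day 10 the level increased 10.7-fold in passaged (9.21 to 12.4), 13.4-fold in NP-ctrl (11.8 to 15.4) and 18.0-fold in NP-IWP2 (15.8 to 20.7). On day 10 the passaged level was 0.771 times that of NP-ctrl (0.729 to 0.816) and 0.494 times that of NP-IWP2 (0.470 to 0.520).

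CACNA1D encodes an L-type calcium channel that opens at more negative voltages than CACNA1C, the L-type channel of working muscle. It lies on chromosome 3 (53328963 to 53813733, plus strand). Its FPKM was at most 0.03 on days 0 to 2 and at most 0.07 on day 3. On days 5, 7 and 10 it was 0.34, 1.49 and 2.57 in passaged. NP-ctrl showed 3.89, 1.79 and 3.15, and NP-IWP2 showed 4.75, 5.26 and 8.37. The passaged arm lagged most on day 5, at 0.0886 times NP-ctrl (0.0716 to 0.109), and was at 0.817 times NP-ctrl (0.739 to 0.904) on day 10. Against NP-IWP2 it was at 0.307 (0.283 to 0.333) on day 10.

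CACNA1G, a T-type calcium channel on chromosome 17 (50560715 to 50627474, plus strand), was already read in stem cells. Its FPKM was 1.80, 0.84 and 3.26 on days 0, 1 and 2. On days 3, 5, 7 and 10 it was 4.05, 1.89, 0.09 and 0.15 in passaged. NP-ctrl showed 2.80, 0.17, 0.53 and 2.49, and NP-IWP2 showed 4.35, 0.30, 0.27 and 2.03. The passaged library was the highest on day 5, at 11.1 times NP-ctrl (7.45 to 17.1), and the lowest on days 7 and 10. On day 10, with 23 reads against 337 (NP-ctrl) and 324 (NP-IWP2), it was at 0.0604 times NP-ctrl (0.0378 to 0.0921) and 0.0739 times NP-IWP2 (0.0462 to 0.113).

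KCNJ3 and KCNJ5 encode the subunits of the acetylcholine-gated potassium channel, and they parted in the passaged arm. KCNJ3 lies on chromosome 2 (154697855 to 154858354, plus strand). It had 0, 7 and 84 reads on days 0, 1 and 2. On days 3, 5, 7 and 10 it had 0, 6, 0 and 0 reads in passaged. NP-ctrl had 12, 785, 1141 and 868 reads, and NP-IWP2 had 12, 299, 720 and 379. The day 10 FPKM of the unpassaged arms was 13.1 (NP-ctrl) and 4.88 (NP-IWP2), and with passaged at the floor of 3 counts its level was at least 327-fold and at least 121-fold lower. NP-IWP2 lay below NP-ctrl on days 5, 7 and 10, at 0.422, 0.517 and 0.371 times its level.

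KCNJ5 lies on chromosome 11 (128891356 to 128921163, plus strand). Its FPKM was 0.02, 0.11 and 4.77 on days 0, 1 and 2. On days 3, 5, 7 and 10 it was 0.19, 2.00, 9.57 and 15.4 in passaged. NP-ctrl showed 1.82, 0.50, 2.58 and 2.27, and NP-IWP2 showed 2.39, 2.78, 10.9 and 6.70. The passaged arm was the lowest on day 3, at 0.103 times NP-ctrl (0.0578 to 0.172), and the highest on day 10, at 6.75 times NP-ctrl (5.80 to 7.89) and 2.29 times NP-IWP2 (2.09 to 2.52). In passaged day 10 cells, KCNJ5 thus had 1458 reads where its partner KCNJ3 had 0.

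Per length, the order of levels on day 10 was TBX18, HCN4, KCNJ3, TBX3, CACNA1D, CACNA1G, KCNJ5 and SHOX2 in NP-ctrl. CACNA1G at 2.49 (2.23 to 2.77), KCNJ5 at 2.27 (1.96 to 2.61) and SHOX2 at 1.91 (1.60 to 2.27) were neighbours whose counting intervals overlapped. In NP-IWP2 the order was TBX18, HCN4, TBX3, CACNA1D, KCNJ5, KCNJ3, CACNA1G and SHOX2, with the last 2 again overlapping. In passaged it was HCN4, TBX3, KCNJ5, CACNA1D, CACNA1G and TBX18, with KCNJ3 and SHOX2 at 0 reads. CACNA1G (0.0952 to 0.225) and TBX18 (0.0364 to 0.140) overlapped there.

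**Figure D2:**
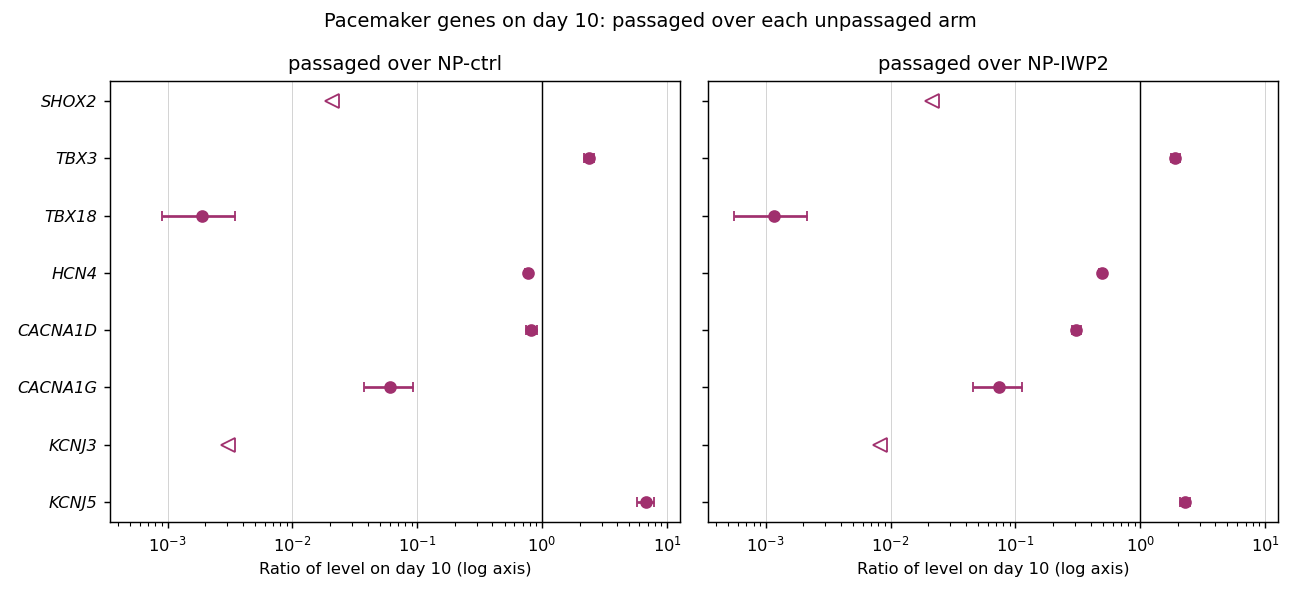
Ratio of the passaged to the NP-ctrl level (left) and to the NP-IWP2 level (right) of each pacemaker gene on day 10, on a log axis with a line at 1. Filled points carry exact 95% counting intervals, and open triangles are upper bounds for genes with 0 passaged reads. TBX3 and KCNJ5 lie above 1 in both panels and the other 6 genes below 1.

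The passaged arm was compared with NP-ctrl by edgeR's quasi-likelihood test over days 3 to 10, with the day as a block. Of the 8 pacemaker genes 3 were lower and 0 higher at an adjusted p under 0.05, against 4.4% of the 21206 genes called in either direction and 2.76% called lower. The 3 were KCNJ3 (adjusted p = 0.000156), SHOX2 (adjusted p = 0.0146) and TBX18 (log2 change -5.86, SE 1.36, adjusted p = 0.0360). All 3 passed the filter only through unpassaged libraries, the arms where they were high, so the count of 3 is a description. In passaged their FPKM was at most 0.08, 0 and 0.11. With no filter on low values edgeR still called them, with KCNJ5 added, where 6.2% of the genes tested were called. SHOX2 and KCNJ3 had 0 reads in 4 and 3 of the 4 passaged libraries, so their fitted changes do not measure size and the bounds above stand in for them. The other 5 did not pass: HCN4 changed by -0.35 (SE 0.28, adjusted p = 0.569), TBX3 by -0.35, CACNA1D by -0.65, CACNA1G by -0.14 and KCNJ5 by 1.38 (SE 0.77, adjusted p = 0.377) on the log2 scale. The median log2 change of the 8 genes was -0.50, beside 0.00 over all genes. DESeq2 called KCNJ3 and SHOX2 but not TBX18 (adjusted p = 0.426), and without day 10 only KCNJ3 stayed past the threshold, with SHOX2 at an edgeR adjusted p of 0.559 and TBX18 at 0.262. Without day 7, too, only KCNJ3 stayed, with SHOX2 at 0.0541 and TBX18 at 0.402, and limma on log2(FPKM + 1) called 163 genes and none of the 8, with KCNJ3 at 0.0685. Without day 3 all 3 kept their calls and KCNJ5 was called higher in passaged (log2 change 2.37, edgeR adjusted p = 0.00183), where 11.2% of all genes were called.

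Against NP-IWP2 the same 3 genes were lower in passaged, where 1.33% of all genes were called and 0.915% were called lower. KCNJ3 (adjusted p = 0.000824), SHOX2 (adjusted p = 0.0292) and TBX18 (log2 change -6.94, SE 1.37, adjusted p = 0.0356) passed in edgeR. HCN4 was at -0.87 (SE 0.28, adjusted p = 0.200) and CACNA1D at -1.66 (SE 0.60, adjusted p = 0.264). TBX3, KCNJ5 and CACNA1G were within 0.08 of 0 on the log2 scale, with SEs of 0.41, 0.69 and 0.96. Both comparisons use the same passaged libraries, so they are not 2 independent results. The limit that the filter sets on the count of 3 holds here too. DESeq2 again left out TBX18 (adjusted p = 0.245), and without day 7 or without day 10 only KCNJ3 was called. limma on log2(FPKM + 1) called none of the 8, with KCNJ3 at an adjusted p of 0.242, and without day 3 the 3 genes kept their calls.

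NP-IWP2 and NP-ctrl differed in 4 of 21206 genes by edgeR (0.0189%), of which 0 were pacemaker genes, with 1009 genes at an unadjusted p under 0.05, KCNJ3 among them (log2 change -1.01, SE 0.40, unadjusted p = 0.0278, adjusted p = 0.973). DESeq2 called 59 genes, again none of the 8. KCNJ5 was at 1.46 (SE 0.72) and TBX18 at 1.08 (SE 0.84) on the log2 scale. When only the libraries of these 2 arms were fitted, CACNA1D, KCNJ3, KCNJ5 and TBX18 passed, where 277 of all genes (1.31%) were called.

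Day 10 was compared with day 3 over the 3 arms. Of the 8 genes 5 were higher on day 10 and 0 lower, against 35.0% of all genes called in either direction and 17.9% called higher. CACNA1D, KCNJ3, SHOX2 and TBX18 passed the filter only through libraries later than day 3. HCN4 rose by 3.85 (SE 0.36, adjusted p = 3.33e-05) and CACNA1D by 6.70 (SE 0.84, adjusted p = 0.000192) on the log2 scale in edgeR. KCNJ3 (5.54, adjusted p = 0.000154), SHOX2 (5.01, adjusted p = 0.00201) and TBX18 (adjusted p = 0.000484) were called as well, and no size is given for TBX18, whose 3 libraries of day 3 held 0, 0 and 1 reads. The rise over the arms of these 3 comes from the unpassaged libraries, since the passaged counts were 0 and 0 for KCNJ3, 0 and 0 for SHOX2 and 1 and 10 for TBX18 on days 3 and 10. KCNJ5 (2.09, SE 0.88, adjusted p = 0.0881), TBX3 (-0.62, SE 0.48) and CACNA1G (-1.25, SE 0.98) did not pass. The median log2 change of the 8 was 4.43, beside 0.04 over all genes. Without the passaged arm, edgeR called the same 5 genes higher and TBX3 lower, where 17.3% of all genes were called higher and 17% lower.

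Whether the course over days 3 to 10 differed between arms was tested as a difference in slope on the log2 of the day. No pacemaker gene passed in edgeR in any of the 3 comparisons. Between passaged and NP-ctrl 95 genes were called (0.448%), with 3771 at an unadjusted p under 0.05, and the nearest pacemaker genes were KCNJ5 (3.56 log2 units per doubling of the day, SE 0.88, adjusted p = 0.0943), TBX3 (1.61, SE 0.40, adjusted p = 0.0974) and TBX18 (-6.58, SE 1.79, adjusted p = 0.119). DESeq2 and edgeR without a filter on low values called these 3, and edgeR without day 3 called TBX3 alone (adjusted p = 0.00814), with KCNJ5 at 0.870. In that order, 6.24, 0.96 and 0.858% of the genes tested were called. Between passaged and NP-IWP2 8 genes were called (0.0377%, with 1594 at an unadjusted p under 0.05). DESeq2 called 0.971% of all genes there, TBX18 among the pacemaker genes. Between NP-IWP2 and NP-ctrl edgeR called 0 genes, with 1459 at an unadjusted p under 0.05, DESeq2 called 6 and limma 0, none of them a pacemaker gene.

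On single days, a difference of at least 1 in log2(FPKM + 1) was counted, with no test. Between passaged and NP-ctrl it was reached by 2, 6, 3 and 6 of the 8 pacemaker genes on days 3, 5, 7 and 10, where 8.5, 8.17, 12.6 and 17.4% of all genes reached it. Between passaged and NP-IWP2 it was reached by 1, 4, 3 and 6 genes, beside 8.71, 7.52, 6.69 and 10.1%. Between NP-IWP2 and NP-ctrl it was reached by 0, 2, 4 and 3 genes, beside 4.15, 2.98, 7.27 and 9.36%. On day 7 the 4 in NP-IWP2 were all higher than in NP-ctrl, namely HCN4 at 2.35 times its level (2.19 to 2.53), TBX18 at 3.06 times (2.83 to 3.31), CACNA1D at 2.94 times (2.65 to 3.27) and KCNJ5 at 4.22 times (3.64 to 4.91).

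The single libraries of day 10 also differed in cardiomyocyte RNA. Of 6 cardiomyocyte genes (TNNT2, MYH6, MYL7, ACTN2, TNNI1 and MYL4), edgeR called 0 between arms over days 3 to 10, where at most 4.4% of all genes were called. All 6 fitted changes were positive in passaged against each other arm. The geometric mean FPKM of the 6 on day 10 was 276 in passaged, 153 in NP-IWP2 and 53.7 in NP-ctrl. Set against it, HCN4 stood at 7.92% of the cardiomyocyte level in passaged, against 52.8% (NP-ctrl) and 29.0% (NP-IWP2). CACNA1D was at 5.86, 5.49 and 0.932% in NP-ctrl, NP-IWP2 and passaged. In the same order, KCNJ5 was at 4.24, 4.39 and 5.57%, a narrower spread than that of its FPKM. TBX3 was at 15.5, 6.76 and 7.13%, CACNA1G at 4.64, 1.33 and 0.0545% and TBX18 at 75.7, 42.7 and 0.0275%. KCNJ3 was at 24.5 and 3.20% in the unpassaged arms and at most 0.0146% in passaged, and SHOX2 at 3.56 and 1.21% and at most 0.0143%. With TNNT2 alone as the measure, the passaged HCN4 level was 0.303 times that of NP-ctrl and 0.381 times that of NP-IWP2, against 0.150 and 0.274 with all 6 genes. On day 10, by either measure, KCNJ5 was the highest in passaged, and HCN4, CACNA1D, CACNA1G, KCNJ3, SHOX2 and TBX18 were the lowest there. Earlier days went otherwise for 2 of them. KCNJ5 on day 7 was lowest in passaged at 4.29% of the 6 genes, against 5.01% (NP-ctrl) and 6.06% (NP-IWP2). With TNNT2 alone it was not the lowest there, at 24.3%, between 15.7% (NP-ctrl) and 31.6% (NP-IWP2). CACNA1G on day 5 was highest in passaged at 4.05% of the 6 genes, against 0.869 and 0.752%.

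**Figure D3:**
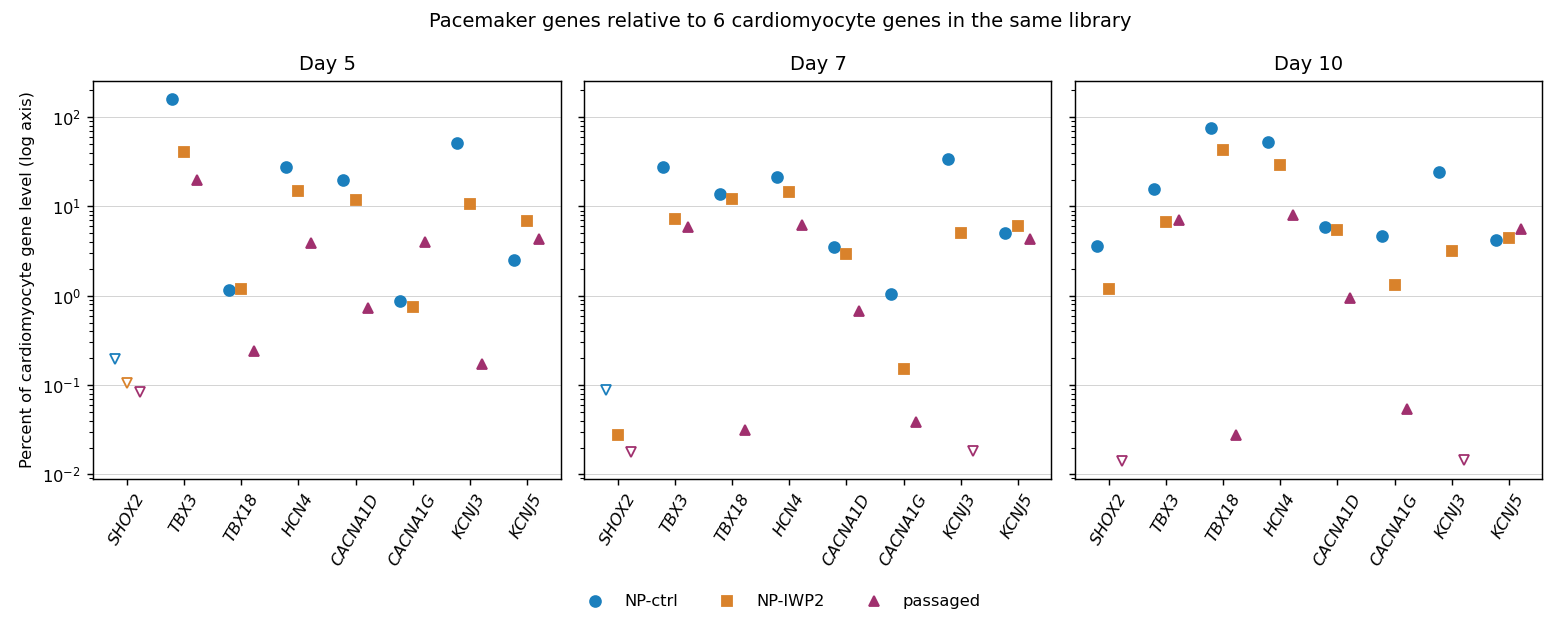
Pacemaker genes on days 5, 7 and 10 as a percent of the geometric mean FPKM of 6 cardiomyocyte genes in the same library, on a log axis. Filled markers are values and open triangles are upper bounds at a floor of 3 counts. HCN4 and CACNA1D lie lowest in the passaged arm on each of the 3 days, and on day 10 KCNJ5 lies within 4.24 to 5.57% in all arms.

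Among 16 other genes of the sinoatrial node, 15 were tested. Over all genes 4.4% were called between passaged and NP-ctrl and 1.33% between passaged and NP-IWP2. BMP4, a growth factor of the sinus region, was the only one called between passaged and NP-ctrl (log2 change -2.13, SE 0.35, adjusted p = 0.00851) and between passaged and NP-IWP2 (-1.76, SE 0.35, adjusted p = 0.0381) by edgeR, lower in both. The call against NP-IWP2 was lost in 6 of 10 alternatives (adjusted p up to 0.241, without day 5) and that against NP-ctrl in 3 (up to 0.0766, also without day 5). Its FPKM on day 10 was 3.33 in passaged, against 45.2 (NP-ctrl) and 38.8 (NP-IWP2). The median log2 change of the 15 was -0.09 and -0.16 in these comparisons. From day 3 to day 10 6 of the 15 were higher and 3 lower, where 17.9% of all genes were called higher and 17.1% lower. CHRM2, the muscarinic receptor that opens the channel built from KCNJ3 and KCNJ5, went from an FPKM of at most 0.01 on day 3 to 14.1 in passaged, 20.7 in NP-IWP2 and 15.3 in NP-ctrl on day 10. ADORA1, an adenosine receptor that acts on the same channel, rose by 2.56 on the log2 scale (adjusted p = 0.000781). RGS6, a brake on that receptor signal, rose by 2.65, CPNE5 by 4.95 and SMOC2 by 4.53. BMP4 fell by 1.22, CACNA2D2 by 1.11 and the connexin GJC1 by 0.44. When NP-IWP2 was left out, SMOC2 (adjusted p = 0.223), BMP4 (0.0773), CACNA2D2 (0.0506) and GJC1 (0.206) lost these calls in edgeR. BMP4 lost its day call in 5 of 10 alternatives, and SMOC2 also without NP-ctrl (0.145). GJC1 lost it as well without a filter (0.134), without NP-ctrl (0.174), without passaged (0.0775) and without day 7 (0.0963). ISL1, a progenitor factor kept in the node, was at 7.75, 28.8 and 17.0 on day 10 in NP-ctrl, NP-IWP2 and passaged and was not called.

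No tested relative of the pacemaker genes was called between arms. Of 13 paralogs 8 were tested. In the edgeR fits of days 3 to 10, 0 were called between arms, where at most 4.4% of all genes were called. From day 3 to day 10 4 rose, TBX2, TBX20 and CACNA1C among them, where 17.9% of all genes were called higher. TBX2, the closest relative of TBX3, was at an FPKM of 20.2, 53.0 and 73.3 on day 10 in NP-ctrl, NP-IWP2 and passaged. TBX20 was at 25.6, 109 and 121. TBX15, the closest relative of TBX18, was at no more than 0.12 on day 10. KCNJ6 and KCNJ9, the other acetylcholine-gated subunits, had an FPKM of at most 0.06 in every library, so no other subunit stood at the level of KCNJ5 in the passaged arm.

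Working muscle genes were checked because SHOX2 and TBX3 are known to hold them back. Of 11 genes 0 were called between arms by edgeR, where at most 4.4% of all genes were called, so 0 of 11 lies near that share. NKX2-5, a cardiac homeobox factor that the node head lacks, had an FPKM of 26.1, 92.3 and 287 on day 10 in NP-ctrl, NP-IWP2 and passaged, and of 1.31, 7.80 and 110 on day 5. NPPB was at 3.78, 2.23 and 78.2 and GJA1 at 93.1, 42.9 and 5.21 on day 10. From day 3 to day 10 edgeR called 4 of the 11 higher and 2 lower, where 17.9% of all genes were called higher and 17.1% lower. NKX2-5 (log2 change 5.41, adjusted p = 0.00257), NPPA and HOPX were among the genes that were higher, and GJA1 was among those that were lower. Without NP-IWP2, NKX2-5 (adjusted p = 0.0759), NPPA (0.319) and HOPX (0.200) were not called in edgeR. NPPA also lost its call without day 5 (0.0564), without day 7 (0.0846), without passaged (0.185) and with limma (0.0562). HOPX lost it without passaged too (0.0564). Of 6 calcium cycling genes, PLN (2.61, adjusted p = 0.00712) and RYR2 (1.66, adjusted p = 0.0105) were higher in passaged than in NP-ctrl, where 1.64% of all genes were called higher. All 6 rose from day 3 to day 10, beside the same 17.9% of all genes. Without NP-IWP2, ATP2A2 (edgeR adjusted p = 0.102) and CASQ2 (0.0632) were not called as rising. PLN lost its call between arms without day 10 (0.0677) and with limma (0.131), and RYR2 without day 7 (0.112), without day 10, with limma and in the fit of the 2 arms (0.124).

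TBX18 is also an epicardial gene, and some markers of that cell type were lower in passaged as well. Of 8 epicardial and mesothelial genes 7 were tested, and WT1 (adjusted p = 0.000877), TCF21 (adjusted p = 0.0419) and BNC1 (adjusted p = 0.0419) were lower in passaged than in NP-ctrl by edgeR, where 2.76% of all genes were called lower. Against NP-IWP2, WT1 was lower and ALDH1A2 higher. TCF21 lost its call in 5 of 10 alternatives (adjusted p up to 0.200, without day 7), BNC1 in 6 (up to 0.316, without day 7) and ALDH1A2 in 6 (up to 0.323, with limma), whereas WT1 lost its call against NP-ctrl with limma alone (0.112) and against NP-IWP2 with limma (0.329) and without day 7 (0.0802). WT1, a defining epicardial factor, had a day 10 FPKM of 0.01 in passaged, against 10.0 (NP-ctrl) and 3.53 (NP-IWP2). TCF21 was at 0 in passaged, against 6.91 and 6.18. TBX18 itself ran in another order between the unpassaged arms, at 40.6 and 65.1. The list's summed FPKM over days 3 to 10 was 31.6 to 85.0 in passaged, against 17.0 to 139 (NP-ctrl) and 12 to 76.0 (NP-IWP2), so the groups overlapped, and most of the passaged sum on day 10 was LRRN4 at 39.5. The part of these cells in the TBX18 and SHOX2 levels was not tested.

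Other cell types also differed between the arms. Over all genes, 4.4% were called by edgeR between passaged and NP-ctrl in either direction, and 2.76% were called lower in passaged. Of 7 mesenchymal genes DCN, LUM and PRRX1 were lower in passaged than in NP-ctrl, and the list summed to 91.6 to 407 in passaged, against 47.5 to 4045 (NP-ctrl) and 31.4 to 1144 (NP-IWP2). DCN and LUM lost their calls in 5 of 10 alternatives each (adjusted p = 0.276 and 0.346 without day 7) and PRRX1 with limma alone (0.0685). Of 6 endoderm and liver genes AFP, APOA2, HNF4A and TTR were lower, and the list summed to 0.36 to 17.5 in passaged, against 20.5 to 2963 and 24.2 to 865. APOA2 and TTR lost their calls in 4 alternatives each (adjusted p = 0.121 and 0.181 without day 7), and AFP and HNF4A in 2 each. None of 5 endothelial genes tested was called between arms, and the list summed to 17.2 to 121 in passaged, against 104 to 165 and 93.2 to 120. None of 3 neuronal genes tested was called between arms, and NEUROD1 had an FPKM of at most 0.05 throughout. The part of these cells in the KCNJ3, SHOX2, TBX18 and CACNA1G levels was not tested.

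**Figure D4:**
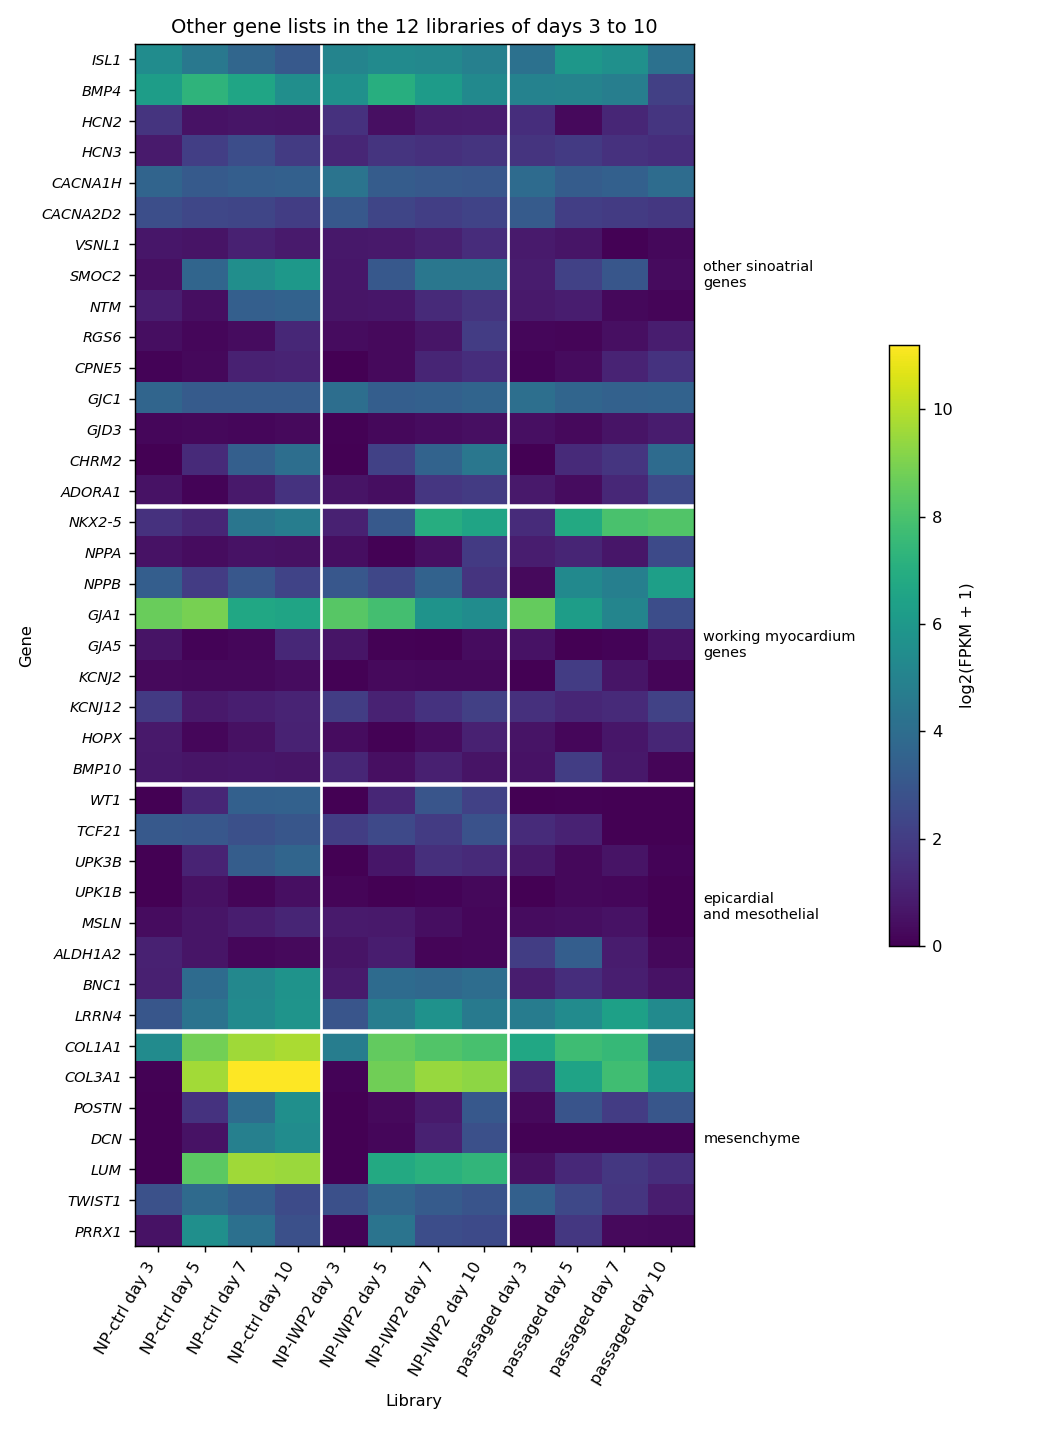
Heat map of log2(FPKM + 1) for most of the other sinoatrial, working muscle, epicardial and mesothelial, and mesenchymal genes (rows) in the 12 libraries of days 3 to 10 (columns, by arm). WT1 and TCF21 are dark and NKX2-5 is bright in the passaged libraries of days 7 and 10.

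The pacemaker genes varied in how alike their levels were across libraries. Over the 15 libraries, the Pearson correlation of log2(FPKM + 1) was 0.858 between HCN4 and CACNA1D, 0.803 between HCN4 and TBX18 and 0.731 between TBX18 and KCNJ3, but 0.134 between KCNJ3 and KCNJ5. SHOX2 and TBX18 gave 0.717, with a Spearman value of 0.033, since SHOX2 was near 0 in all but a few libraries. These libraries share a cell line and a time course, so the values are descriptions only. Among 10171 protein-coding genes, the 3 most like HCN4 by Pearson correlation were MITF (0.964), SYTL3 (0.951) and WNT2 (0.951). Among those most like TBX18 were PLVAP (0.970) and AFP (0.967), and those most like KCNJ3 were MTTP (0.969), DDR2 (0.967) and S100A14 (0.966). KCNJ5 was most like HRC (0.942), ATP1B2 (0.924) and PROB1 (0.905). For CACNA1D they were CSRNP3 (0.960), PRR16 (0.952) and TECRL (0.947), and for CACNA1G ATL2 (0.919), FAR1 (0.859) and EEF1AKMT2 (0.858). For TBX3 they were MSX2 (0.908), POMGNT1 (0.907) and ACAD10 (0.905), and for SHOX2 PANK3 (0.878), TKTL1 (0.877) and CLDN1 (0.876).

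Genes on the other strand limit some of these counts, because whether counting used the strand was not stated. SHOX2 overlaps RSRC1, which had up to 526 reads, and CACNA1D overlaps DCP1A and CHDH. KCNJ5-AS1 had 137 reads on day 2 and 58 in passaged day 10, where KCNJ5 had 602 and 1458. TBX18-AS1 had at most 8 and TBX3-AS1 at most 5 reads, and KCNJ3 overlaps no annotated gene.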

How the data were processed

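Total RNA was sequenced in bulk from 15 libraries. According to the submitters' processing notes, reads were trimmed with Cutadapt 1.9.1, aligned to hg38 with HISAT2 2.0.1 and counted per gene with HTSeq 0.6.1, and DESeq2 was among their tools. The extraction text names a long-read kit (SMRTbell) beside these short-read tools, and the sources leave unclear which reads were counted. The authors deposited raw counts for 60605 genes. The deposited FPKM values are those counts scaled by exon length and library total, and recomputing them gave differences of at most 0.005. Coordinates of the 8 genes equal those of GENCODE 44 (GRCh38). Columns were matched to samples by title. Total counts of 13254723 to 20250115 set the depth, and a floor of 3 counts stands in for 0 in ratios.

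Genes reaching an FPKM of 1 in 1 library or more were tested with edgeR 4.0.16 (glmQLFit, TMM, R 4.3.3) on the counts of the 12 libraries of days 3 to 10, with the arm and the day as factors (6 residual degrees of freedom). A second fit took the slope of each arm on log2(day). P-values were adjusted by Benjamini-Hochberg over all genes tested. The edgeR test reports no standard error, so each SE is the size of the log2 change divided by the square root of its F statistic. In the first fit the spread behind them is how far the arm differences changed from day to day, since each arm and day has 1 library. In the second fit it is the departure of the libraries of an arm from its line. Neither is a spread between replicate cultures. Single libraries were compared by the difference in log2(FPKM + 1) and by count ratios with exact Clopper-Pearson 95% intervals. These use the counts of single libraries, so they cover counting error and not the spread between cultures. PCR copies are not independent molecules, so the intervals may be too narrow even for counting error. Alternatives were DESeq2 1.42.0, limma 3.58.1, other filters and scalings, and leaving out days or arms. The fit was also run on simulated data of 21206 genes, with the outcome not reported here.

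The members and gene lists were chosen with earlier results of these data known. All 8 genes are named. From other lists, members past the test are named, or the highest by mean FPKM where none or more than 6 pass, with a few further genes (TBX2, TBX15, KCNJ6, KCNJ9, ISL1, LRRN4, and neighbours of the 8 genes) chosen after their values were seen. The values of some listed genes are not reported here.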

Additional observations from a re-analysis of the deposited data

Results flagged for a closer look

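For 3 pacemaker genes the difference in log2(FPKM + 1) between the same arms passed 1 in opposite directions on different days. Each day has 1 library per arm, so the change of direction itself was tested only as a difference in slope, where none of the 3 passed in edgeR. Against NP-ctrl, DESeq2 and edgeR without a filter on low values called TBX3 (adjusted p = 0.00921 and 0.0358) and KCNJ5 (0.000674 and 0.0176), and edgeR without day 3 called TBX3 (0.00814). Of the genes tested, 6.24, 0.96 and 0.858% were called in these 3 fits.

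Relative to NP-ctrl, TBX3 in passaged was at -1.04 on day 3, -1.67 on day 5 and 1.15 on day 10 (slope difference adjusted p = 0.0974). On the same scale KCNJ5 was at -1.24, 1.00, 1.56 and 2.32 on days 3, 5, 7 and 10 (adjusted p = 0.0943). Against NP-IWP2, KCNJ5 was at -1.51 on day 3 and 1.09 on day 10 (adjusted p = 0.525). CACNA1G in passaged was at 1.3 on day 5 and -1.60 on day 10 relative to NP-ctrl (adjusted p = 0.390), and against NP-IWP2 it was at 1.15 on day 5 and -1.40 on day 10 (adjusted p = 0.803). With TPM in place of FPKM, TBX3 was at -0.81, -1.79 and 0.93 on days 3, 5 and 10 against NP-ctrl, and KCNJ5 was at 0.95 on day 10 against NP-IWP2, so these 2 no longer passed 1 in both directions there.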

How the results depend on the processing

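No paired analysis was possible because each arm and day has 1 library, so the groups carry no shared replicate numbers; the day is already a block in the fits over days. Of the pacemaker genes called between passaged and NP-ctrl (3), limma left 0, and the fit of only the 2 compared arms, leaving out day 7 and leaving out day 10 left 1 each, KCNJ3. In that order, 0.769, 0.514, 0.627 and 1.52% of all genes were called. Between passaged and NP-IWP2 (3), limma left 0, the stricter filter of an FPKM of at least 5, the fit of only the 2 compared arms, leaving out day 7 and leaving out day 10 left 1 each, and testing without a filter gave 5. The shares of the genes tested were 0.0283, 1.59, 0.769, 0.0613, 0.736 and 3.3%. Between NP-IWP2 and NP-ctrl (0), testing without a filter and leaving out day 3 gave 1 each, KCNJ5, and the fit of only these 2 arms gave 4. The shares there were 0.897, 0.165 and 1.31%. For the slope between passaged and NP-ctrl (0), DESeq2 and no filter gave 3 each and leaving out day 3 gave 1, and between passaged and NP-IWP2 (0) DESeq2 gave 1. For these 4 fits the shares were 6.24, 0.96, 0.858 and 0.971%. The count of day 10 against day 3 (5) stayed within 4 to 7, and SHOX2 lost its call without NP-IWP2 (adjusted p = 0.1). Over these settings 10.5 to 49.8% of the genes tested were called. On day 3, TPM gave 1 gene in place of 2 between passaged and NP-ctrl, and a pseudocount of 0.1 gave 3 in place of 1 between passaged and NP-IWP2. On day 10, TPM gave 1 higher gene in place of 2 between passaged and NP-ctrl and 0 in place of 1 between passaged and NP-IWP2. Over all genes, these were 4501 in place of 1803 and 4536 in place of 1846 on day 3. On day 10 they were 1422 higher in place of 1204 and 1023 higher in place of 651. Over all genes, where edgeR called 933 (passaged and NP-ctrl), 282 (passaged and NP-IWP2) and 4 (the unpassaged arms), DESeq2 called 2031, 845 and 59 in that order and limma 163, 6 and 0; for the slopes of the first 2, where edgeR called 95 and 8, DESeq2 called 1323 and 206 and limma 31 and 1. With Spearman in place of Pearson correlation, 4 of the 24 most alike genes were shared. The cause of these changes was not tested. Some of the settings also had fewer libraries or genes in the fit.

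Values that changed sign were all of genes that had not passed. For passaged against NP-ctrl, leaving out day 5 turned HCN4 to 0.013, TBX3 to 0.13 and CACNA1D to 0.31, and CACNA1G became 0.65 without day 7 and 0.78 without day 10. For passaged against NP-IWP2, TBX3 became 0.29 without day 3 and 0.19 without day 5, KCNJ5 became 0.28 and 0.049, and CACNA1G became -1.32 without day 5, -0.57 in the fit of the 2 arms and -0.14 with limma. For NP-IWP2 against NP-ctrl, CACNA1G became 0.15 without day 7, 0.010 in the fit of the 2 arms and 0.043 with limma, and SHOX2 became -0.21 without day 7 and -0.0052 with limma.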
